A study of Drosophila melanogaster with 4 samples.

Results

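CG9672, annotated as a serine protease gene, and Spn77Ba, a gene for a serine protease inhibitor (serpin), were followed in Drosophila melanogaster embryos without zygotic function of the transcription factor Grainy head (GRH), which controls genes of the cuticle and other parts of the epidermal barrier. They were found in the array files as the accessions GH16384, a cDNA clone of CG9672, and NM_140948, 1 of 3 RefSeq transcripts of Spn77Ba, among spots that are not controls. This gave 2 of the 26228 accessions on the array (here called targets), with 1 probe each of 32162 probes. The CG9672 probe was printed once per array and the Spn77Ba probe on 2 spots, so 3 of the 43603 gene spots carried these accessions. Since 363 of the 26228 targets could be named, further probes of either gene under other accessions may be on the array and were not analysed here, and the values below are those of this 1 probe per gene.

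The mutant embryos were homozygous for grhIM, an allele with a stop codon early in the DNA-binding domain, on a second chromosome that also carried cn, bw and sp. Wild-type embryos carried cn, bw and sp as well, and in addition y, an allele the mutants did not have. Both were raised at 25°C and taken at late stage 16 and early stage 17, when cuticle is being laid down, and mutants were picked by the absence of a fluorescent balancer chromosome. Gut autofluorescence was used to stage both genotypes, and RNA of about 500 pooled whole embryos was hybridised per array, with 2 arrays of grhIM and 2 of wild type, all on 1 slide.

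Serine proteases cut other proteins, often one protease activating the next in a cascade, and serpins stop them by trapping the active enzyme in a complex that does not come apart. In Drosophila such cascades in the blood lead to activation of the Toll receptor and to melanization, the darkening of wounds and of invading organisms. Spn77Ba is known as a serpin of the tracheal (airway) system, where its loss leads to melanization of the trachea and to Toll-dependent expression of an antimicrobial peptide. CG9672 has no function known in comparable detail. RefSeq lists SPH161 among its synonyms, a series of names used in Drosophila for serine protease homologues, proteins with the protease fold that lack a part of the catalytic site, and its protein sequence was not examined here. CG9672 stands in the category of misregulated serine proteases and serpins that the study drew up from these arrays, whereas Spn77Ba does not. A change of CG9672 here is thus not independent evidence for that category. The study lists genes of the category in both directions, more of them higher than lower in the mutant, with CG9672 among the higher.

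Between 75.9% and 80.0% of probes were well above background in grhIM and 77.6% and 83.1% in wild type, and no gene spot was saturated. The brightest probe of the grh target LD38807 read 9.67 and 9.84 in grhIM and 8.75 and 8.89 in wild type (normalised log2 signal). Since the lesion is a stop codon, this transcript does not check the labels. None of the 33 genes on 7 lists of markers for trachea, gut, blood cells, epidermis, muscle, neurons and fat body could be named on the array, so the tissue composition of the pools was not examined.

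CG9672 was the gene of the pair that was called, and it was higher in the mutant. Its single spot had a processed signal, the intensity after background subtraction by the scanner software, of 551 and 646 in grhIM embryos and of 169 and 208 in wild-type embryos. Both mutant values lay far above both wild-type values, and the errors that the software assigned to the spot were 55.5 and 64.8 in grhIM and 17.7 and 21.1 in wild type. After normalisation of the 4 arrays by cyclic loess, CG9672 had a log2 signal of 9.18 and 9.26 in grhIM, against 7.51 and 7.57 in wild type, or 9.22 ± 0.06 and 7.54 ± 0.04 (SD, n = 2 each). The genotype difference was 1.67 ± 0.11 (SE) on the log2 scale, or 3.19-fold with a 95% interval of 2.61 to 3.90. Its limma adjusted p over all targets was 0.00117. From the table that the authors normalised and deposited, the difference was smaller, at 1.40 ± 0.11 (SE). The study also lists CG9672 as higher in the mutant, at a fold change below 3.19. That value is per gene, from the probe with the highest fold change, and may not be from the probe followed here. The difference of 1.67 was 29.6 times the larger of the 2 replicate SDs, each from 2 normalised values. Over all tested targets the median replicate SD was larger, at 0.08 in grhIM and 0.14 in wild type. Before normalisation the CG9672 replicates also lay farther apart, at 9.11 and 9.34 in grhIM and 7.40 and 7.70 in wild type.

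Spn77Ba was bright in both genotypes and its values were lower in the mutant, but it was not called. Its first spot read 9488 and 9735 in grhIM embryos and 13488 and 15599 in wild-type embryos, and its second spot read 9622 and 9638 in grhIM and 12626 and 15166 in wild type. On each array the 2 spots lay within 0.10 of each other on the log2 scale, while every wild-type reading was higher than every grhIM reading. The normalised log2 signal was 13.28 and 13.18 in grhIM and 13.76 and 13.80 in wild type, which is 13.23 ± 0.07 and 13.78 ± 0.03 (SD, n = 2 each). The difference of -0.55 ± 0.11 (SE) corresponds to a level 1.47-fold higher in wild type, with a 95% interval of 1.20 to 1.79. Its limma adjusted p was 0.0285, under 0.05 but not under the 0.01 used for calls.

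**Figure D1:**
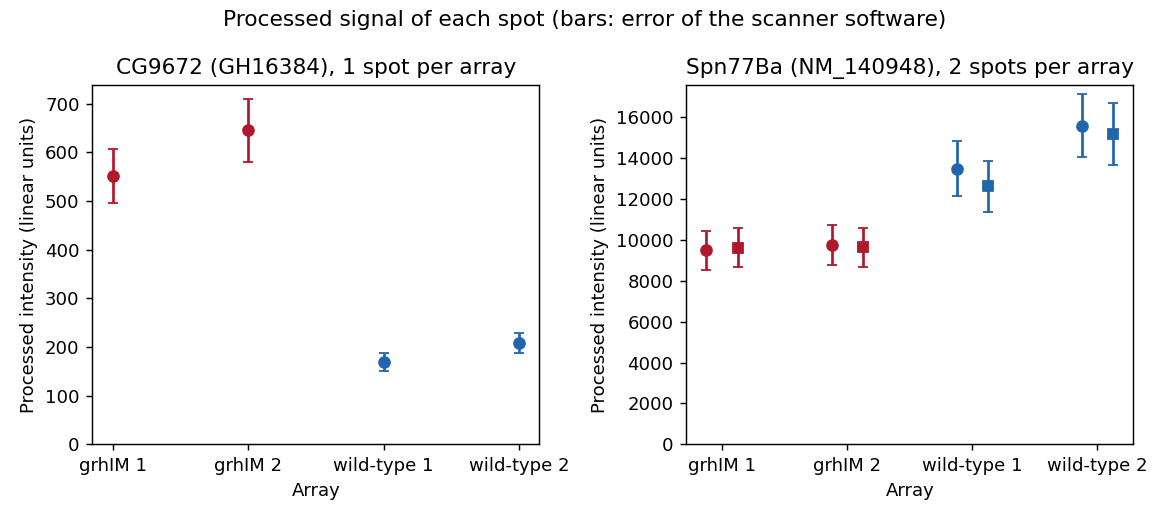
Processed intensity (linear units) of every spot of CG9672 (left) and Spn77Ba (right) on the 2 grhIM arrays (red) and the 2 wild-type arrays (blue); bars are the error given by the scanner software, and circles and squares are the first and second spot of a probe. CG9672 reads 551 and 646 in grhIM against 169 and 208 in wild type, and all Spn77Ba spots are lower in grhIM than in wild type.

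These calls are to be read against the whole array. With 1 of the 2 genes called at a limma adjusted p under 0.01, the share over all 20349 tested targets was 9.24%, with 4.03% called higher and 5.21% called lower in grhIM. At an adjusted p under 0.05, which both genes met, 20.8% of targets passed, 9.55% of them higher and 11.2% lower as shares of all targets. Groups that do not overlap were common: both grhIM arrays lay above both wild-type arrays in 30.7% of targets and below them in 33.6%. The rise of CG9672 was the 414th largest of all targets, so that 2.03% had a difference as high or higher, and it was 362nd among the 820 called rises, close to their median of 1.57. A difference as low as that of Spn77Ba or lower was found in 13.3% of targets, and the smallest called change was 0.77, above the size of the Spn77Ba difference. The median difference over all targets was -0.01.

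**Figure D2:**
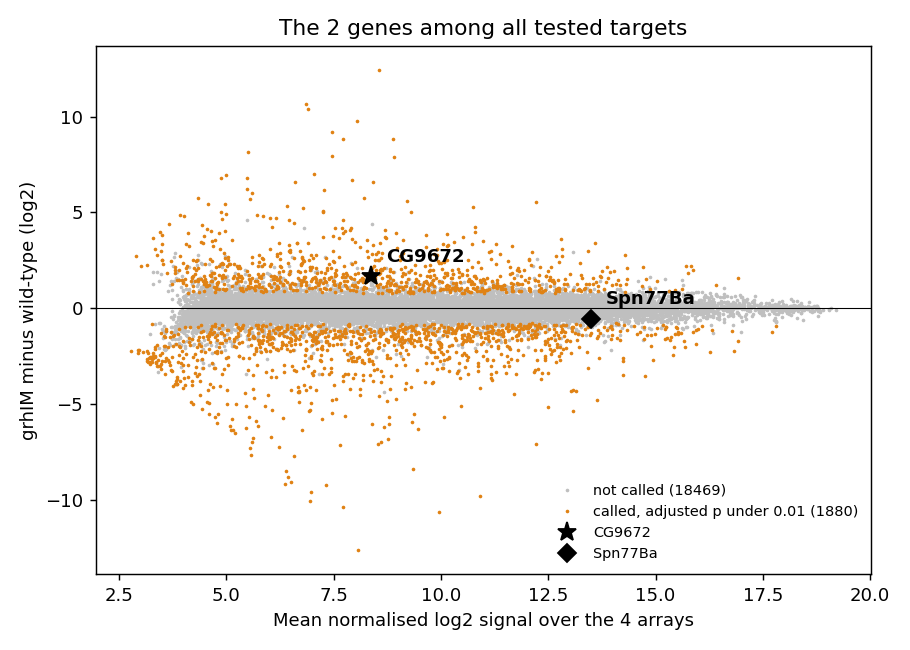
Genotype difference (grhIM minus wild-type, log2) against the mean normalised log2 signal over the 4 arrays for the 20349 tested targets, with called targets in orange, CG9672 as a star and Spn77Ba as a diamond. CG9672 lies among the called rises at 1.67, and Spn77Ba at -0.55 lies among targets that were not called.

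The place of each gene by brightness was compared between genotypes. A rank of probes reflects how well each probe hybridises as well as how much RNA is present, so the ranks serve only to compare a probe with itself. CG9672 ranked 11804 and 11618 of 20349 targets in grhIM and 14676 and 14429 in wild type, with rank 1 the brightest. In the genotype means it moved to the 42.5th percentile in grhIM, against the 28.5th in wild type. Spn77Ba ranked 2820 and 2983 in grhIM and 2091 and 2072 in wild type, at the 85.7th percentile in grhIM and the 89.8th in wild type. Among the 300 tested targets with a gene name, CG9672 stood at place 190 in grhIM and 234 in wild type, and Spn77Ba at place 46 in grhIM and 35 in wild type. For both genes the ranks of the 2 genotypes did not overlap, which restates the signals above. Of all targets, 30.7% had both grhIM signals above both wild-type signals and 33.6% had both below.

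Because CG9672 was dim, its signal was set against the background of each array. All 12 readings of the 3 spots were marked as well above background, and none was marked as saturated, non-uniform or an outlier. The raw median signal of CG9672 was 431 and 533 in grhIM and 171 and 200 in wild type, over a local background of 16 and 17 in grhIM and of 18 and 19 in wild type. The median of the 153 negative-control spots was higher than that local background, at 53 and 55.5 in grhIM and 53 and 57.5 in wild type. CG9672 was thus 8.13 and 9.60 times as bright as the negative controls in grhIM and 3.23 and 3.48 times in wild type, although on the first wild-type array the brightest negative-control spot, at 221.5, exceeded it. Spn77Ba was 147 to 264 times as bright as the negative controls over its 8 readings.

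**Figure D3:**
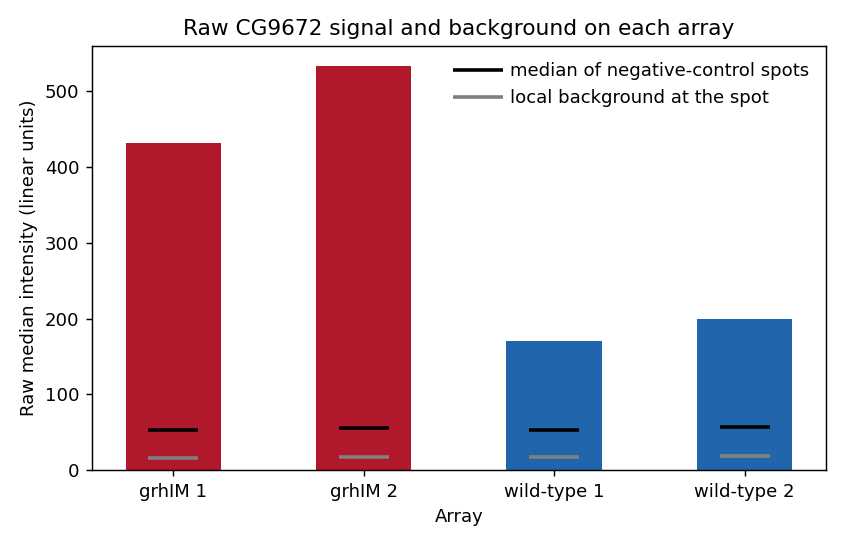
Raw median intensity (linear units) of the CG9672 spot on each array as bars, grhIM in red and wild type in blue, with the median of the negative-control spots (black lines) and the local background at the spot (grey lines). The bars reach 431 and 533 in grhIM and 171 and 200 in wild type, while both background measures differ little between arrays.

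The size of the CG9672 difference therefore moved with the treatment of background. Raw signals without normalisation between arrays gave a log2 difference of 1.37, signals less the local background 1.48, and signals less the median of the negative controls 1.71. For Spn77Ba the same 3 values were all -0.57. The normexp correction of the raw signals was run with an offset of 50 added to every signal, which by construction narrows the differences of dim probes. With it, CG9672 differed by 0.97 ± 0.23 (SE) and was no longer called (limma adjusted p 0.0634), while Spn77Ba differed by -0.54 ± 0.10 (SE; limma adjusted p 0.0337). How far the offset accounts for the smaller CG9672 difference and its larger SE was not tested. Without wild-type replicate 1 the CG9672 difference was 1.64, and in that fit neither it (limma adjusted p 0.0176) nor any other target was called by limma, although 8441 targets had an unadjusted p under 0.05.

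The positions of the spots were examined as well. The CG9672 spot lay in row 2 of the 532 rows of the array, where the scanner software had multiplied the background-subtracted signal by 1.41 and 1.38 in grhIM and by 1.43 and 1.53 in wild type. Before that correction the genotype difference of CG9672 was 1.79 ± 0.12 (SE; limma adjusted p 0.00207). Over the 59 tested probes with a spot within 5 rows and 5 columns of the CG9672 spot, the median difference was -0.13. The quartiles were -0.33 and 0.01. Here and around the Spn77Ba spots, a probe on several spots entered with the mean over all of them. These medians are thus not of the nearby spots alone. Around the 2 Spn77Ba spots, in rows 17 and 84, the median differences were 0.04 and 0.05 over 67 and 95 probes. Taken alone, the 2 spots gave differences of -0.59 ± 0.11 and -0.52 ± 0.12 (SE) for Spn77Ba.

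**Figure D4:**
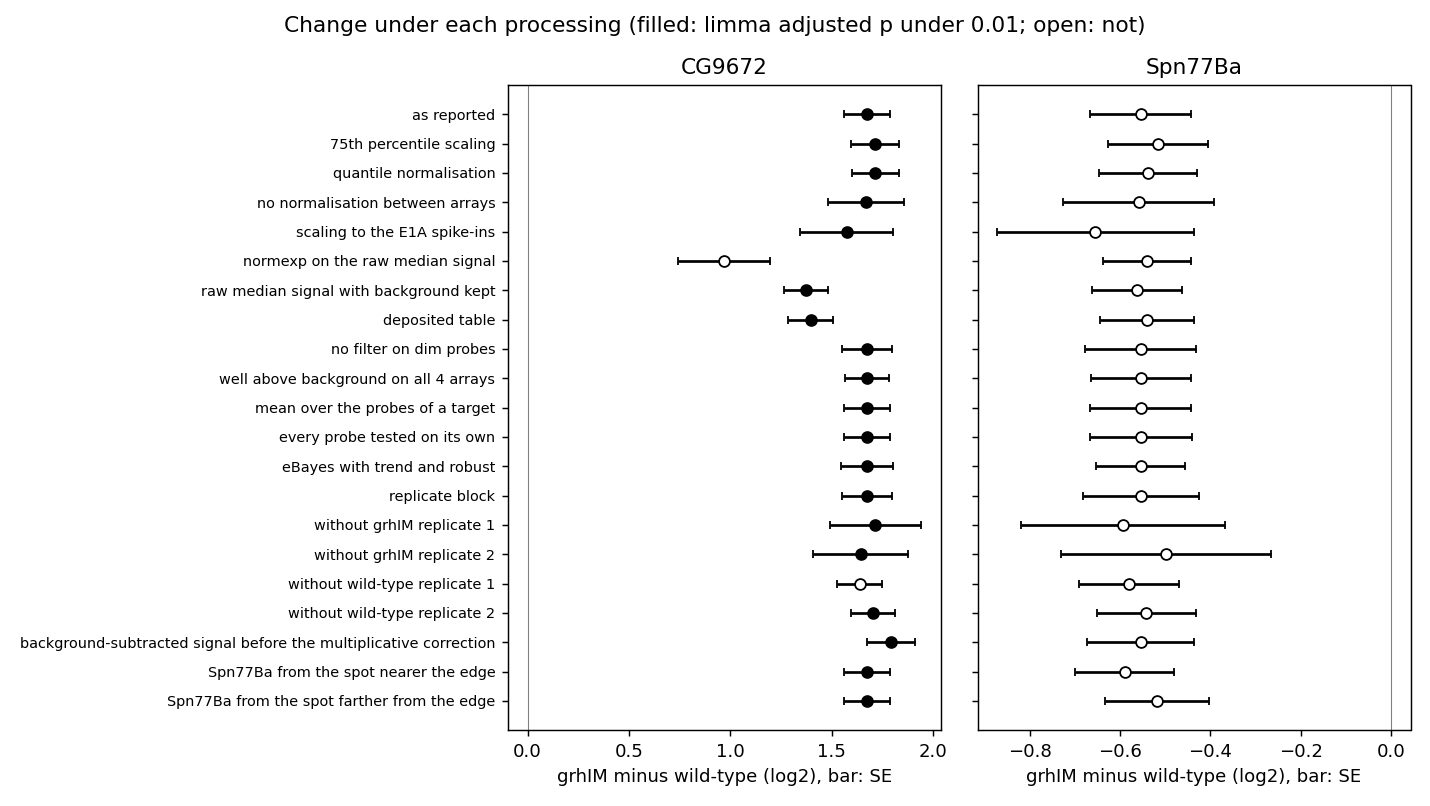
Difference between grhIM and wild type (log2, with SE) of CG9672 (left) and Spn77Ba (right) under the reported processing and each alternative. Filled circles have a limma adjusted p under 0.01; CG9672 stays between 0.97 and 1.79 and is open in 2 settings, and Spn77Ba stays between -0.65 and -0.50 and is open in all.

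CG9672 and Spn77Ba were then compared on each array, since a difference taken within an array does not depend on a constant scaling between arrays. Whether Spn77Ba inhibits the product of CG9672 was not examined. The log2 signal of CG9672 minus that of Spn77Ba was -4.10 and -3.92 in grhIM and -6.25 and -6.23 in wild type. Its absolute size depends on the 2 probes and was not interpreted, but the shift between genotypes can be read. The mean was -4.01 ± 0.12 in grhIM and -6.24 ± 0.01 in wild type (SD, n = 2 each). The signal of CG9672 relative to that of Spn77Ba was thus 4.69-fold higher in grhIM (2.23 on the log2 scale). Without normalisation the shift was also 2.23. An exact two-sided permutation test over the 4 arrays gave p = 0.333, which is the smallest p that 2 against 2 arrays allow, so this test could not pass any usual threshold. In RNA of whole embryos, fewer cells that express a gene and less RNA per cell cannot be told apart.

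Other proteases, serpins and genes of the melanization and Toll cascades could be followed only in small part, since few probes can be matched to gene names. Of 44 genes in the category of serine proteases and serpins, CG9672 was the 1 that could be named on the array, and of 32 listed Drosophila serpins Spn77Ba was the 1. No member could be named of the lists of 18 clip-domain and cascade proteases of the Toll and melanization pathways, 3 phenoloxidases (the enzymes that make melanin), 30 trypsin and Jonah digestive proteases, or the 9 genes of the study's melanization and wound healing category. In RefSeq, CG9672 lies on the X chromosome beside CG4653, CG9673 and sphe, which have SPH names too, and Spn77Ba lies on chromosome arm 3L beside the serpin genes Spn77Bb and Spn77Bc and overlaps the antisense RNA gene CR43875. The y allele that sets the wild-type strain apart is on the X chromosome as well, and an effect of grhIM and one of strain background cannot be told apart with these arrays. None of the 6 nearest neighbours of either gene could be named on the array, so they were not analysed here.

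Among named targets, 6 had a synonym of the SP or SPH series, the numbered names of Drosophila serine proteases and their homologues, and 4 of these were tested. This group was put together after the named targets were known. Of the 3 tested genes other than CG9672, limma called 0 higher and 1 lower in grhIM, beside 4.03% higher and 5.21% lower over all targets, and their median difference was -0.31, against -0.01 over all targets. CG30283 (SP37, also SPH37) had 10.04 and 10.10 in grhIM and 10.97 and 10.86 in wild type (normalised log2 signal). Its difference was -0.85 ± 0.11 (SE; limma adjusted p 0.00871), so it was lower in the mutant. The genes CG32260 (cSP232) and CG8172 (cSP32), whose synonyms carry the prefix given to clip-domain proteases, differed by -0.14 ± 0.14 and -0.31 ± 0.32 (SE) and were not called (limma adjusted p 0.540 and 0.533). The remaining genes, CG4793 and sphinx2, were not well above background on both arrays of either genotype and were not tested.

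The named targets with the pattern closest to each gene were found by the Euclidean distance over the 4 arrays, with each target centred on its own mean. The centred values of CG9672 and Spn77Ba differed mainly by genotype. Targets near them thus had similar differences by selection, and whether they were called is no separate result. Among 299 other named targets, atos (distance 0.23), sick (0.26) and lncRNA:CR33942 (0.27) were nearest to CG9672, with differences of 1.81, 1.47 and 1.70, and all 3 were called (limma adjusted p 0.00218, 0.00344 and 0.00221). Over all targets 74 lay within the distance of atos, and 4.03% were called higher in grhIM. For Spn77Ba the nearest were b6 (0.10), lncRNA:CR32658 (0.11) and CG33941 (0.12), with differences of -0.52, -0.49 and -0.46, and none of these was called (limma adjusted p 0.0457, 0.0412 and 0.0433). Over all targets 85 lay within the distance of b6, and 5.21% were called lower in grhIM.

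**Figure D5:**
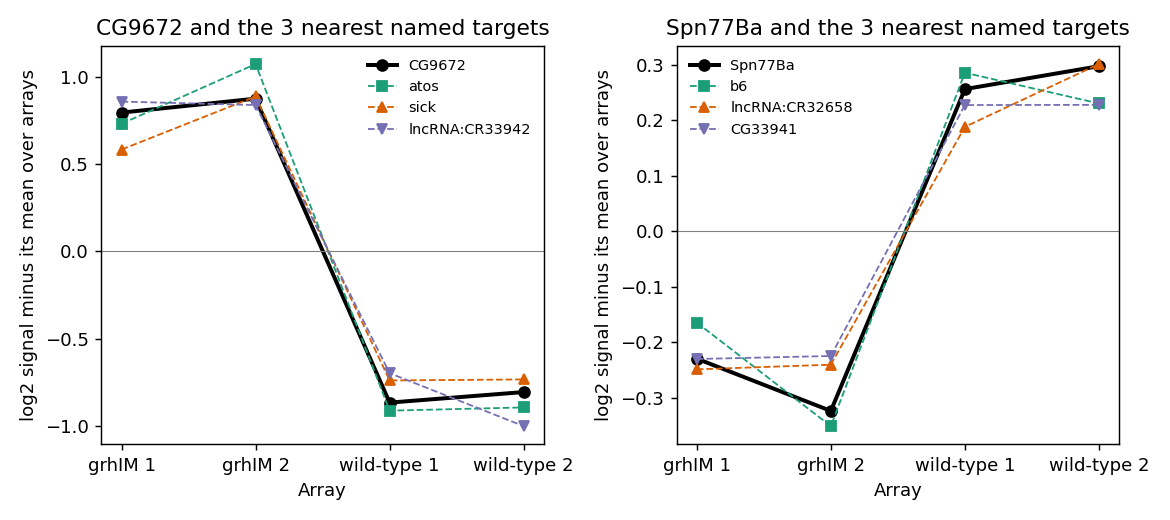
Normalised log2 signal minus its mean over the 4 arrays for CG9672 (left) and Spn77Ba (right), in black, and for the 3 named targets nearest to each. The grhIM arrays stand left of the wild-type arrays, and lines join the values of a target; CG9672 and its neighbours are high in grhIM, and Spn77Ba and its neighbours are low.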

How the data were processed

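Each array's deposited file gives linear spot intensity, which the authors obtained from 1-colour (Cy3) arrays. Per the file headers, Agilent Feature Extraction was run in version 10.7.3.1 with a design grid of build dm3. Processed intensity is background-subtracted and corrected within the array, and flags of 0 or 1 accompany it. A further deposited table gives loess-normalised intensity, made by the authors from all 4 arrays, for 24684 probes, and how these probes were picked is not stated in the sources read.

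Controls were dropped, as were spots with a non-uniformity or outlier mark, and 15 probes lost all their spots on at least 1 array in this way. The spots of a probe were averaged as log2 processed signal, and the arrays were normalised by cyclic loess (span 0.7, 3 iterations), as the study had used a loess method over all samples at once. Targets well above background (at least 50% of spots) on both arrays of 1 genotype were tested. Each target was represented by its brightest probe. The 2 genotypes were set against each other with limma 3.58.1 in R 4.3.3 (lmFit and eBayes, 1 genotype term), with Benjamini-Hochberg adjustment over all targets and calls at an adjusted p under 0.01. The fit was tested on simulated data with the same noise level for every target and array. The arrays here had unequal spread, with a median replicate SD of 0.08 in grhIM and 0.14 in wild type. With 2 arrays per genotype the number of arrays limits the precision.

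Names came from a RefSeq table of assembly Release 6, which named 363 of 26228 targets by accession or synonym. Array coordinates were not used, since the builds differ. Gene order and the overlap of neighbouring genes came from the coordinates of the RefSeq table alone. The genes and lists were chosen with earlier results of these data known. Named genes were this pair, list members and neighbours that could be named, and the 3 nearest named targets of each gene.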

Additional observations from a re-analysis of the deposited data

How the results depend on the processing

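The direction of both differences was the same in all 20 alternatives run. The correction step and the single Spn77Ba spots were chosen as alternatives after seeing the data. At 0.01, CG9672 was called in 18 of them and Spn77Ba in none, with limma adjusted p from 0.000536 to 0.0634 for CG9672 and 0.0112 to 0.221 for Spn77Ba. The calls of CG9672 were lost with normexp at an offset of 50 (0.97) and without wild-type replicate 1. With a threshold of 0.05 in place of 0.01, Spn77Ba at -0.55 passed. Leaving out single arrays gave 1.64 to 1.72 for CG9672 and -0.59 to -0.50 for Spn77Ba, in fits that take the spread from the genotype with 2 arrays. The shift of CG9672 relative to Spn77Ba, 2.23, became 1.51 with normexp, 1.94 with raw median signals, 1.94 with the deposited table and 2.35 before the multiplicative correction, and it was 2.14 to 2.31 with an array left out. Spike-in scaling moved the median of all targets to -0.12, with CG9672 at 1.57 and Spn77Ba at -0.65.

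The count of 1880 called targets became 541 with normexp (33.5% of them higher in grhIM, against 43.6%), 883 without a filter on dim probes and 4230 at an adjusted p under 0.05. It was 0 to 1741 with single arrays left out: 0 without wild-type replicate 1, 960 when wild-type replicate 2 was left out and 1148 without grhIM replicate 1. Nothing in the labels ties arrays of 1 number to each other, and the correlation of same-numbered deviations was 0.25. A replicate block gave 2942 called targets, CG9672 among them (limma adjusted p 0.000541), and Spn77Ba was not (0.0280). An added offset narrows differences of dim probes by construction, but how far it accounts for these changes, and what else does, was not tested. The raw CG9672 signal was 3.23 to 9.60 times the median of the negative controls, against 147 to 264 times for Spn77Ba.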
